A study of Mus musculus with 24 samples.

Results

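The STAT genes encode transcription factors that cytokine receptors switch on, and 6 of them are described here in invariant natural killer T (iNKT) cells: Stat2, Stat3, Stat4, Stat5a, Stat5b and Stat6. They were chosen by symbol from the table of all samples, without use of their values, and are 6 of 55335 genes in that table. All 6 passed the filter on low counts that left 15953 genes for testing. iNKT cells are T cells with a nearly fixed T cell receptor that sees lipids held by CD1d, and alpha-galactosylceramide (aGC) is the lipid most used to activate them. They were sorted from mesenteric lymph nodes (mLN), which drain the gut, 24 h after oral gavage.

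Libraries came from 8 groups of 3. KO FT mice and WT FT mice were C57BL/6J offspring of dams given a fecal transplant (FT) from CD1d-knockout (KO) or wild-type (WT) donors, so KO and WT name the donor of the feces and not the genotype of the mice sorted. KO FT and WT FT mice were gavaged with 2 µg aGC in 200 µL PBS, or with the same volume of PBS, and females and males formed separate groups. The labels state neither age nor how many mice gave a library. No label ties the 3 libraries of a group to different animals, and the p-values therefore rest on a spread among libraries that may be technical.

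Cytokine receptors lack enzyme activity of their own and carry JAK kinases, which phosphorylate STAT proteins on the bound receptor. Phosphorylated STATs pair up, enter the nucleus and bind DNA, mostly at GAS elements, and STAT2 acts with IRF9 in the ISGF3 complex at interferon-stimulated response elements (ISRE). STAT5A and STAT5B serve IL-2, IL-7 and IL-15, STAT4 serves IL-12 and the interferon-gamma program, STAT6 serves IL-4 and IL-13, STAT3 serves IL-6, IL-10, IL-21 and IL-23, and STAT2 serves type I interferon. RNA levels, as measured here, do not show phosphorylation.

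The promoters shown here are those that held a searched motif and a single window for each of the neighbouring pair Stat5a and Stat5b, whose RNA levels parted after aGC. RefSeq's table of promoters (GRCm38.p6) held 9 windows for the 6 genes, each from 250 bases before to 50 bases after a transcript start. They were searched on both strands for the GAS element TTCNNNGAA, its form with 4 middle bases TTCNNNNGAA and the ISRE core GAAANNGAAA. Over all 32851 promoters in the table, these letters occurred in 8.30%, 6.95% and 3.44% in that order. In 7 of the 9 windows none of the 3 was found, and no window held TTCNNNGAA. In the Stat2 window (chr10:128270248-128270547, + strand) an ISRE core began 222 bases before the start and a TTCNNNNGAA began 210 bases before it, and both are in capitals here.
Stat2: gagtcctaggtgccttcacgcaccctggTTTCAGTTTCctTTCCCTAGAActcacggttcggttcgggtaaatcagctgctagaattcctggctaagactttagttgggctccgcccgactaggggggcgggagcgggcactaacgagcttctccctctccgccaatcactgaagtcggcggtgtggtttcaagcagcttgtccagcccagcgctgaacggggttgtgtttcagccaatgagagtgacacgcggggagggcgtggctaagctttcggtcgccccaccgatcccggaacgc
The window of the second Stat4 start (chr1:52007990-52008289, + strand) held an ISRE core 97 bases before the start, in capitals here.
Stat4: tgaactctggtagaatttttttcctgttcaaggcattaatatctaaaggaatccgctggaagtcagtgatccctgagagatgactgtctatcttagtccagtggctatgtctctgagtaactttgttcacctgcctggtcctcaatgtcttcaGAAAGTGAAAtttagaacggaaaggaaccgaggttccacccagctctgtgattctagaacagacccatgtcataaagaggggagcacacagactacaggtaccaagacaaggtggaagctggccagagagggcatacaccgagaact
The windows of Stat5a (chr11:100860234-100860533, + strand) and of the shorter Stat5b transcript (chr11:100822521-100822820, - strand) are set side by side. Capitals mark the runs of at least 12 bases that they have in common, 29 bases in all, close to the start.
Stat5a: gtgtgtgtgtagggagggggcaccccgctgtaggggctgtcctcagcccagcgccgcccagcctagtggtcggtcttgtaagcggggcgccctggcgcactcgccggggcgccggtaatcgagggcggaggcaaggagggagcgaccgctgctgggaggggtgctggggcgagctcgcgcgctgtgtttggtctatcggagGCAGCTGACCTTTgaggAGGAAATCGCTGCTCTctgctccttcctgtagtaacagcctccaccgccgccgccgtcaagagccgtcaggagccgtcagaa
Stat5b: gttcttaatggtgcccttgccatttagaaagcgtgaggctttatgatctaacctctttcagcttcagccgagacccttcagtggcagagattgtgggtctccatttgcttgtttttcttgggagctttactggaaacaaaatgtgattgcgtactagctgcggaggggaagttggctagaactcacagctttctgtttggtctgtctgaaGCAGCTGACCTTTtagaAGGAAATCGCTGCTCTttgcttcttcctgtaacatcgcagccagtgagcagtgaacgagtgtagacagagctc
The Stat5 windows shown share this stretch near the start, while neither holds one of the 3 motifs. Each gene has a further window, chr11:100859406-100859705 for Stat5a and chr11:100850532-100850831 for Stat5b. Those windows hold none of the 3 motifs either, and they were not compared with each other.

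The family sits in 3 places in the mouse genome (GENCODE M21, GRCm38). Stat5b (100780731 to 100850724, - strand), Stat5a (100859351 to 100885169, + strand) and Stat3 (100885098 to 100939540, - strand) follow each other on chromosome 11. The gap between Stat5b and Stat5a is 8626 bases, and the 3′ ends of Stat5a and Stat3 overlap by 72 bases. Stat6 (127642986 to 127660957, + strand) and Stat2 (128270559 to 128292849, + strand) lie on chromosome 10, and Stat4 (51987148 to 52107189, + strand) on chromosome 1. The libraries do not keep the strand, so reads in the 72 shared bases of Stat5a and Stat3, and in 40 bases that Stat6 shares with Nab2, cannot be told apart by strand. Of the stretches of 31 bases in the transcripts, 11.5% of those of Stat5a also occur in Stat5b and 15.1% of those of Stat5b occur in Stat5a, so the estimator divides a part of their reads between them. For Stat4, 23.7% occur in Gm28177, an overlapping transcript of the same strand that averaged 3.03 CPM.

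Total counts per library ranged from 9764931 to 37016768, and the STAT genes had at least 359 counts in every library. Genes that mark iNKT and T cells were counted in all 8 groups, 12 of 12, and their summed level was 5212 to 6269 CPM in the aGC libraries, against 7173 to 9427 CPM in the PBS libraries. After aGC 11 of the 12 were lower in both donors, where 58.1% of all genes passed in KO FT mice and 68.4% in WT FT mice. The part of these lower marker levels in the STAT responses was not tested. The genes of conventional CD8 T cells, Cd8a and Cd8b1, split the groups: their summed level was 494 to 523 CPM in KO FT aGC females, 393 to 396 CPM in KO FT PBS males, 631 to 640 CPM in WT FT aGC females and 854 to 863 CPM in WT FT PBS males, and it lay between 14.1 and 19.8 CPM in the other 4 groups. The 7 genes of naive and recirculating T cells were high in the same 4 groups, at 1906 to 2893 CPM against 789 to 1163 CPM elsewhere. In females the groups given aGC are the high ones and in males the groups given PBS are, so a difference between the sexes' responses and these markers cannot be told apart. The labels of sex matched the sex-linked genes in every library, with Xist at 8.76 to 48.3 CPM in females and at most 0.646 CPM in males, and Ddx3y, of the Y chromosome, at most 0.471 CPM in females and 41.2 to 78.6 CPM in males. Summed levels of the other lists ranged from 454 to 1078 CPM for 9 B cell genes, 130 to 273 CPM for 11 myeloid and dendritic cell genes and 45.5 to 92.4 CPM for 7 stromal, endothelial and epithelial genes. The summed B cell level was lower in each aGC group than in its PBS group. Gene by gene 0 were higher and 3 lower of 7 tested in KO FT mice (58.1% of all genes passed). In WT FT mice 2 were higher and 4 lower (68.4%). Of their defining genes, Pax5 was at 0 in all 4 male groups. In pooled cells such as these, fewer cells of a type and less RNA per cell cannot be told apart.

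Levels are given in CPM, counts scaled by library total and TMM, and between genes only as CPM per kb of exon. On that scale Stat6 and Stat4 stood at the top in every group, with group means of 70.5 to 119 for Stat6 and 54.9 to 91.7 for Stat4. Stat6 led in 7 of the 8 groups. Only in KO FT PBS females was Stat4 (79.9 ± 5.7, SD, n = 3) above Stat6 (70.5 ± 3.6), and in WT FT aGC males their means, 75.9 ± 3.0 for Stat4 and 77.2 ± 3.2 for Stat6, lay within the SD of either. In the PBS groups Stat3 (27.9 to 32.4) and Stat5b (16.9 to 33.4) came next, and Stat2 (9.95 to 12.5) and Stat5a (7.18 to 10.7) were at the bottom. The means of Stat2 and Stat5a lay within 1 SD of each other in both male PBS groups. In the aGC groups Stat5a stood at 32.8 to 41.7, beside 23.9 to 38.0 for Stat3 and 22.3 to 37.2 for Stat5b. Stat2 alone was at the bottom there, at 5.10 to 9.05.

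The libraries of a group lay close together. The coefficient of variation within a group was 1.37% to 5.12% for Stat6 and 1.39% to 7.16% for Stat3, and reached 15.2% for Stat2, the least abundant member. Highest and lowest group means in CPM differed 5.81-fold for Stat5a, 2.45-fold for Stat2, 2.20-fold for Stat5b, 1.68-fold for Stat6, 1.67-fold for Stat4 and 1.59-fold for Stat3.

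**Figure D1:**
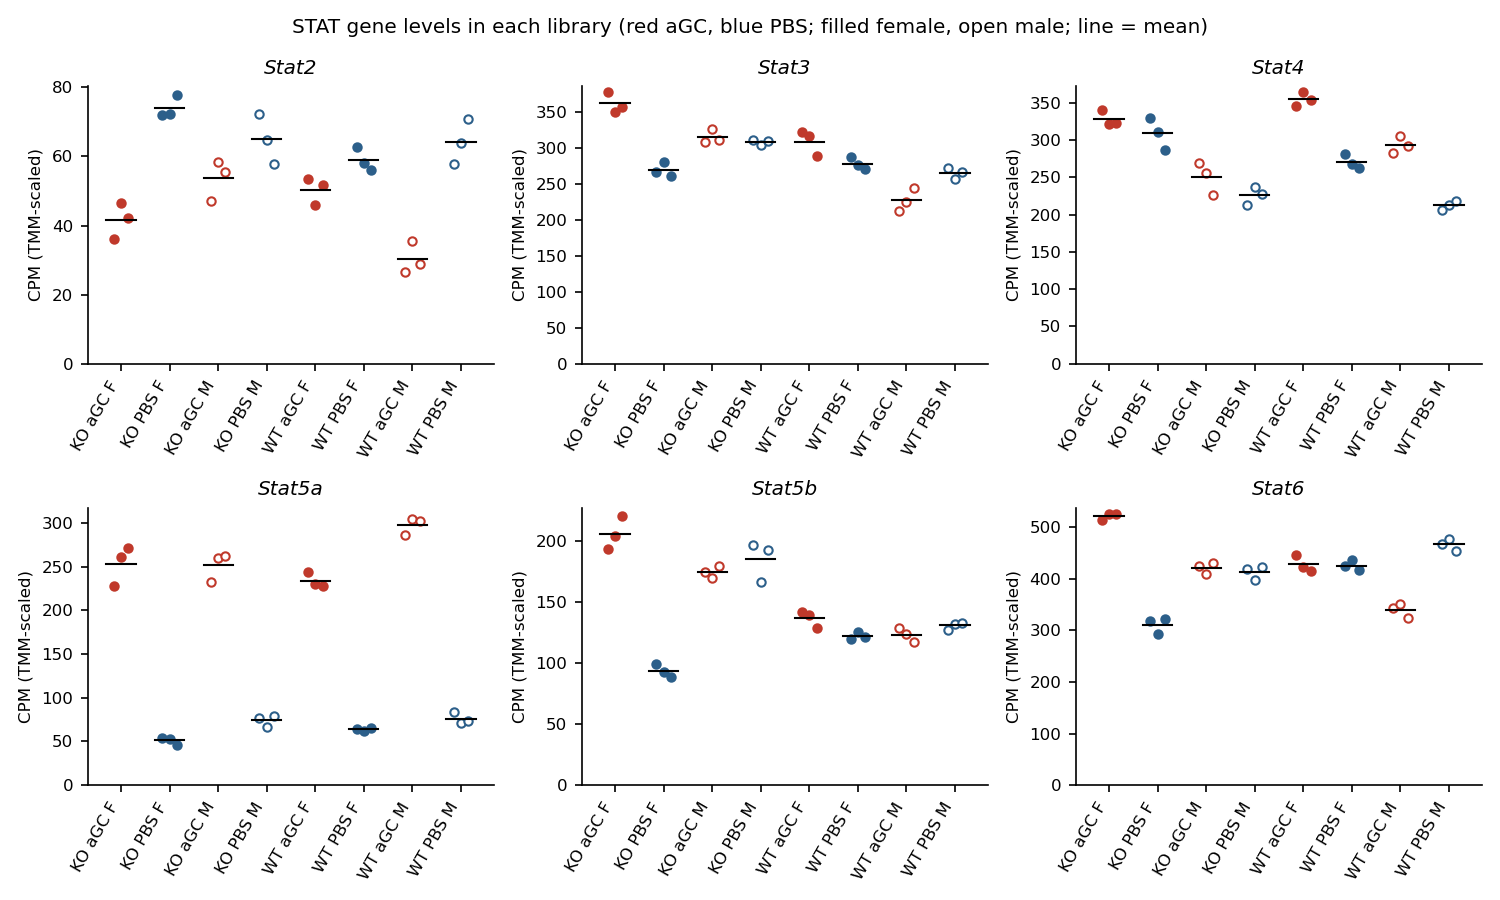
Level of each STAT gene in each of the 24 libraries, in CPM with TMM scaling on linear axes from 0 (F female, M male). Points are libraries and lines are means of 3. Every red (aGC) Stat5a point, at 227 to 305 CPM, lies above every blue (PBS) point, at 46.5 to 83.4 CPM, while for the other 5 genes the aGC and PBS libraries overlap.

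The response to aGC was led by Stat5a, one of the 2 STATs downstream of IL-2. In KO FT mice 6 of 6 STAT genes passed the test at an adjusted p under 0.05, 5 higher and Stat2 lower, where 58.1% of all genes tested passed. In WT FT mice 4 of 6 passed, Stat5a and Stat4 higher and Stat2 and Stat6 lower, where 68.4% of all genes did. The median log2 change of the 6 was 0.31 in KO FT mice and 0.00 in WT FT mice, beside -0.03 and -0.11 over all genes tested. Shares of members near these backgrounds are no result about the family, and the sizes of change are given for each gene.

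Stat5a was at 227, 261 and 271 CPM in KO FT aGC females, against 54.2, 52.9 and 46.5 CPM in KO FT PBS females. It was at 232, 260 and 262 CPM in KO FT aGC males, against 77.2, 66.8 and 78.8 CPM in KO FT PBS males. In WT FT mice it was at 243, 230 and 228 CPM in aGC females and 286, 305 and 302 CPM in aGC males, against 64.8, 62.6 and 66.0 CPM in PBS females and 83.4, 71.6 and 73.2 CPM in PBS males. All 12 aGC libraries were above all 12 PBS libraries, and among the aGC libraries those of WT FT males stood highest. The log2 change was 2.04 ± 0.06 (SE) in KO FT mice, a 4.11-fold rise, and 1.91 ± 0.05 in WT FT mice, a 3.77-fold rise (edgeR's quasi-likelihood test, Benjamini-Hochberg adjusted p = 4.51e-19 and 4.31e-19). The rise was present in females and males of both donors, from 1.77 to 2.31 on the log2 scale. Cd8a and Cd8b1 were high in the aGC groups of females and in the PBS groups of males. The part of that difference in the size of the rise was not tested. Stat5a was also the only one of the 6 genes that passed for aGC when the 3 libraries of a group were summed to 1 profile (edgeR, adjusted p = 0.0102 in KO FT and 0.00323 in WT FT mice). The responses of KO FT and WT FT mice differed by 0.13 ± 0.08 on the log2 scale (95% interval -0.02 to 0.28), which did not pass the test (adjusted p = 0.191).

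Stat5b, the neighbour and close relative of Stat5a, did not follow it. It was at 193, 204 and 221 CPM in KO FT aGC females, against 99.5, 92.4 and 88.9 CPM in KO FT PBS females, a log2 change of 1.14 ± 0.06 (edgeR, adjusted p = 6.00e-13). KO FT males had 174, 170 and 180 CPM after aGC and 197, 166 and 192 CPM after PBS, which overlap, with a log2 change of -0.08 ± 0.06. WT FT mice had 142, 139 and 128 CPM in aGC females and 128, 124 and 117 CPM in aGC males, against 120, 126 and 121 CPM in PBS females and 127, 132 and 133 CPM in PBS males. Stat5b thus rose clearly in 1 of 4 settings, where its PBS level was the lowest of all groups. The aGC females of KO FT mice also had the higher Cd8a and Cd8b1 level, and its part in this rise was not tested. The small rise in WT FT females (0.16 ± 0.06, adjusted p = 0.0352) was lost without PBS female library 1 or 3, or aGC female library 1 or 2, with log2 changes of 0.13 to 0.16 and adjusted p of 0.0735 to 0.140. It was also lost with upper-quartile scaling (0.11, adjusted p = 0.129) and without the filter on low counts (0.07, adjusted p = 0.668).

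The share of Stat5a within the Stat5 pair was higher after aGC in all 4 settings. Per kb of exon, Stat5a made up 48.8 ± 1.1% (SD, n = 3) of Stat5a plus Stat5b in KO FT aGC females and 52.8 ± 1.7% in KO FT aGC males, against 29.8 ± 1.0% in KO FT PBS females and 23.8 ± 0.4% in KO FT PBS males. In WT FT mice it made up 57.1 ± 0.9% in aGC females and 65.2 ± 1.7% in aGC males, against 29.0 ± 1.0% in PBS females and 31.1 ± 2.3% in PBS males. On this scale Stat5b was the more abundant of the pair in all 12 PBS libraries, and Stat5a was in all aGC libraries of WT FT mice and of KO FT males. In KO FT aGC females, where Stat5b rose too, the shares of Stat5a in the 3 libraries were 47.7%, 49.9% and 48.8%, so Stat5b was still the more abundant there.

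**Figure D2:**
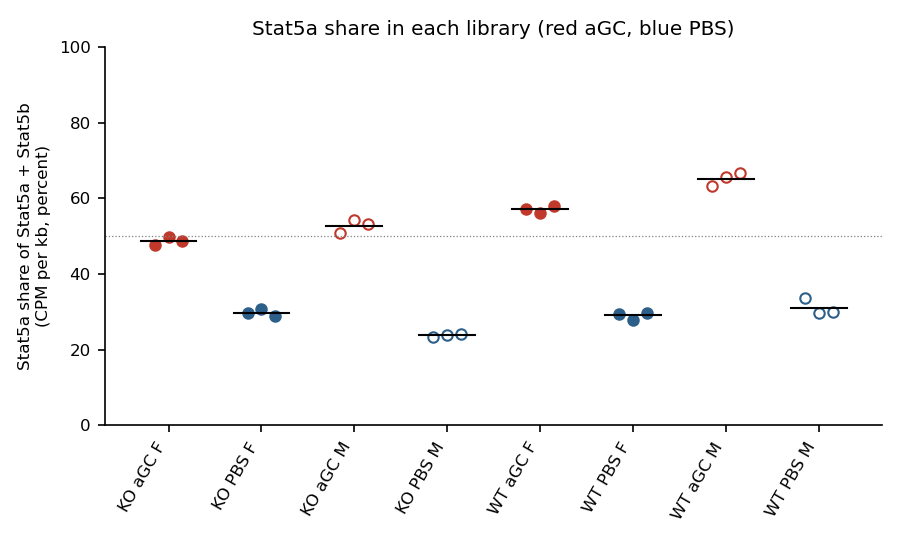
Share of Stat5a in the sum of Stat5a and Stat5b, in percent of CPM per kb of exon, for each library (red aGC, blue PBS, filled female, open male, lines are means of 3, dotted line at equal levels). PBS libraries lie between 23.4% and 33.8% and aGC libraries between 47.7% and 66.7%.

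Stat6, which carries the IL-4 signal, and Stat3, which carries IL-6 and IL-21, also rose in KO FT females. Stat6 was at 514, 526 and 526 CPM in KO FT aGC females, against 318, 292 and 321 CPM in KO FT PBS females, a log2 change of 0.75 ± 0.04 (edgeR, adjusted p = 1.26e-12). In WT FT males it fell to 344, 352 and 324 CPM after aGC, against 467, 478 and 455 CPM after PBS, a log2 change of -0.46 ± 0.04 (adjusted p = 3.44e-09). In neither of these settings did the libraries overlap. KO FT males (424, 409 and 431 CPM after aGC, 419, 397 and 422 CPM after PBS) and WT FT females (445, 422 and 416 CPM after aGC, 424, 436 and 417 CPM after PBS) overlapped, with log2 changes of 0.03 and 0.01 (SE 0.04 each).

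Stat3 was at 378, 351 and 358 CPM in KO FT aGC females, against 266, 281 and 262 CPM in KO FT PBS females, a log2 change of 0.43 ± 0.05 (edgeR, adjusted p = 2.59e-07). In WT FT males it fell to 213, 225 and 245 CPM after aGC, against 272, 257 and 267 CPM after PBS (log2 change -0.22 ± 0.05, adjusted p = 7.15e-04). KO FT males had 309, 327 and 312 CPM after aGC and 312, 304 and 310 CPM after PBS, which overlap. WT FT females had 322, 316 and 289 CPM after aGC and 287, 277 and 271 CPM after PBS, which lie close but do not overlap. Their log2 change of 0.15 ± 0.05 (adjusted p = 0.0154) was lost without PBS female library 3 or aGC female library 1 or 2 (0.12 to 0.14, adjusted p 0.0553 to 0.0893), with upper-quartile scaling (0.10, adjusted p = 0.0965) and without the filter on low counts (0.06, adjusted p = 0.672).

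Stat4, which carries the IL-12 signal to the interferon-gamma gene, rose mainly in WT FT mice. It was at 346, 365 and 354 CPM in aGC females and 283, 306 and 293 CPM in aGC males of WT FT mice, against 282, 268 and 263 CPM in PBS females and 206, 213 and 219 CPM in PBS males. Within each sex the aGC libraries did not overlap the PBS libraries, and the log2 change over both sexes was 0.43 ± 0.04 (edgeR, adjusted p = 4.32e-09). KO FT mice had 341, 322 and 323 CPM in aGC females and 270, 256 and 226 CPM in aGC males, against 330, 311 and 286 CPM in PBS females and 213, 237 and 228 CPM in PBS males, which overlap within each sex. Their log2 change of 0.12 ± 0.04 had an adjusted p of 0.0219 in edgeR, and it did not pass without PBS female library 3 (0.09, adjusted p = 0.0824) or PBS male library 1 (0.09, adjusted p = 0.0767). It also did not pass with upper-quartile scaling (0.09, adjusted p = 0.0917) or without the filter on low counts (0.10, adjusted p = 0.132). With only the compared groups it was 0.12 (adjusted p = 0.0592). Female libraries were above male libraries in each of the 4 conditions. In the 4 groups low in Cd8a, where aGC males are set against PBS females, the change was 0.13 (adjusted p = 0.122) in WT FT mice and -0.30 (adjusted p = 0.00242) in KO FT mice, and there sex and treatment cannot be told apart.

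Stat2, the STAT of the type I interferon complex, fell in both donors. It was at 36.2, 46.5 and 42.1 CPM in KO FT aGC females, against 72.0, 72.2 and 77.8 CPM in KO FT PBS females (log2 change -0.83 ± 0.11, edgeR, adjusted p = 9.98e-07). In WT FT males it was at 26.6, 35.4 and 28.7 CPM after aGC, against 57.9, 64.0 and 70.9 CPM after PBS (log2 change -1.09 ± 0.11, adjusted p = 1.08e-08). KO FT males had 47.1, 58.3 and 55.6 CPM after aGC and 72.2, 64.8 and 57.7 CPM after PBS, and WT FT females had 53.6, 46.1 and 51.6 CPM after aGC and 62.6, 58.1 and 56.1 CPM after PBS. The groups overlapped in KO FT males and did not overlap in the other 3 settings. The change in KO FT males (-0.28 ± 0.11, edgeR, adjusted p = 0.0369) was lost without PBS male library 1 or 2, or aGC male library 1 or 3 (-0.30 to -0.19, adjusted p 0.0513 to 0.189). It was also lost without the filter on low counts (-0.24, adjusted p = 0.0513) and with only the compared groups (-0.24, adjusted p = 0.103). That in WT FT females (-0.23 ± 0.11, adjusted p = 0.0753) did not pass, but did with upper-quartile scaling (-0.28, adjusted p = 0.0293), without the filter on low counts (-0.32, adjusted p = 0.00392), in limma-voom (-0.25, adjusted p = 0.0407) and with only the compared groups (-0.23, adjusted p = 0.0251). Over both sexes Stat2 fell by 0.55 ± 0.08 in KO FT mice and by 0.66 ± 0.08 in WT FT mice on the log2 scale (adjusted p = 1.65e-06 and 8.81e-08).

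Genes induced by interferon through ISGF3 were lower after aGC in most cases. Of 24 interferon-stimulated genes, 22 were lower and 1 higher after aGC in KO FT mice, and 19 were lower and 3 higher in WT FT mice, with median log2 changes of -0.90 and -0.51, beside -0.03 and -0.11 over all genes tested, of which 58.1% and 68.4% passed in either direction. Irf9, the partner of STAT2, fell by 0.53 in both (adjusted p = 4.05e-11 and 2.33e-11). Ifit3, an antiviral gene, was lower in KO FT females (-3.59) and WT FT males (-0.43), and higher in KO FT males (0.24) and WT FT females (0.22). In KO FT females 23 of 24 were lower and 0 higher (56.0% of all genes passed in either direction), and in WT FT males 18 were lower and 2 higher (66.6%). KO FT males, with 10 lower and 8 higher (53.5%), and WT FT females, with 13 lower and 5 higher (58.4%), were the 2 settings with the smaller changes of Stat2.

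**Figure D3:**
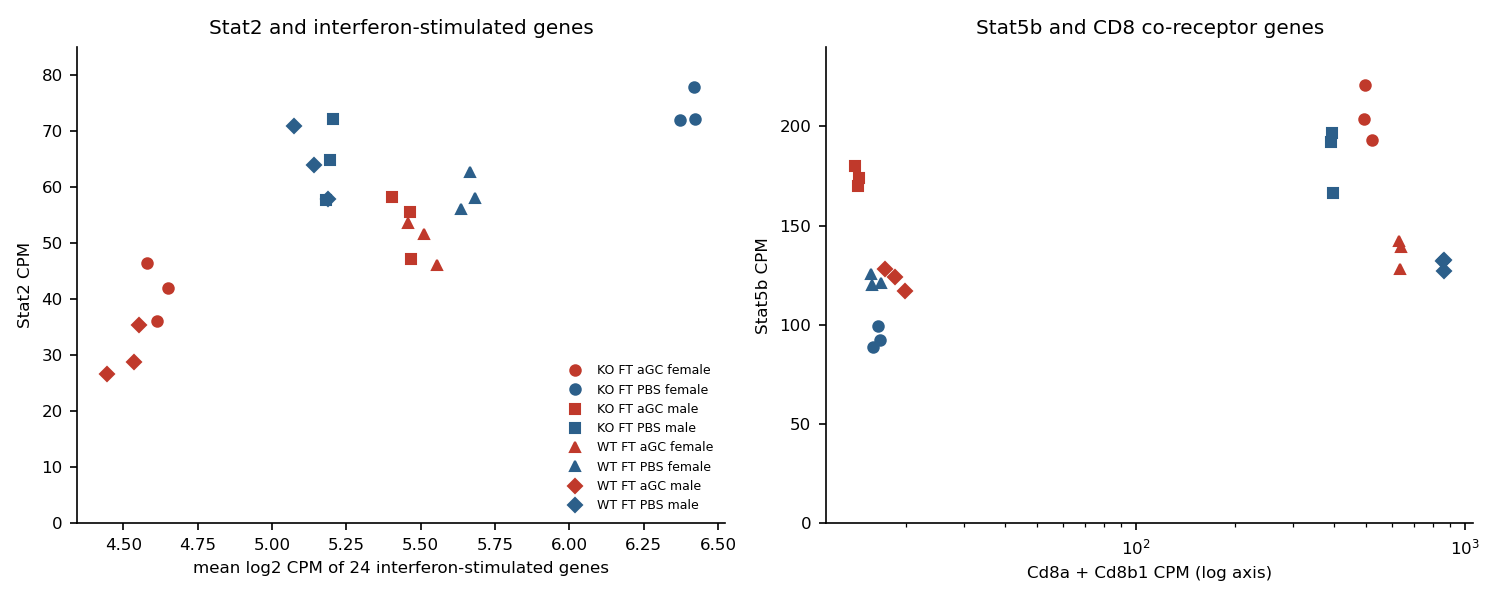
Left, Stat2 level (CPM) against the mean log2 CPM of 24 interferon-stimulated genes in each library. Right, Stat5b level (CPM) against the summed CPM of Cd8a and Cd8b1, on a log axis (red aGC, blue PBS, symbols as in the legend). KO FT PBS females, at 72.0 to 77.8 CPM of Stat2, have the highest interferon-stimulated level, 6.37 to 6.42, and the libraries with Stat5b above 160 CPM include groups high and low in Cd8a and Cd8b1.

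The donor of the feces was compared after PBS and after aGC, to ask how the mother's microbiota bears on the cells with and without antigen. After PBS, 3 of 6 passed between KO FT and WT FT mice, where 29.4% of all genes did: Stat4 was higher in KO FT mice, and Stat6 and Stat5a were lower. After aGC 5 of 6 passed, where 51.9% of all genes did: Stat2, Stat3, Stat5b and Stat6 were higher in KO FT mice and Stat4 was lower. The difference between the responses of KO FT and WT FT mice passed for 4 of 6, where 44.5% of all genes passed. All these comparisons share libraries with each other. With 1 profile per group none of the 6 passed in any of these 3 comparisons, nor did any of all genes (edgeR, 0 of 6 with an unadjusted p under 0.05 in each), while DESeq2 and limma-voom on the 24 libraries called 3, 5 and 4 of 6.

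Stat6 turned round between PBS and aGC. After PBS it was lower in KO FT mice, with group means of 310.3 ± 15.9 CPM (SD, n = 3) in KO FT females and 413 ± 13.7 CPM in KO FT males, against 426 ± 9.43 CPM in WT FT females and 466.5 ± 11.7 CPM in WT FT males. After aGC it was higher, at 522 ± 7.17 CPM in KO FT females and 422 ± 11.3 CPM in KO FT males, against 428 ± 15.6 CPM in WT FT females and 339.9 ± 14.1 CPM in WT FT males. In each of these 4 pairs the KO FT and WT FT libraries did not overlap. The log2 difference was -0.32 ± 0.03 after PBS and 0.30 ± 0.03 after aGC (edgeR, adjusted p = 1.84e-07 and 3.70e-08), and the response was larger in KO FT mice by 0.62 ± 0.04 (adjusted p = 6.70e-10). Stat6 had the largest response difference of the 6 genes.

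Stat5b was higher in KO FT mice after aGC, by 0.59 ± 0.06 in females and 0.50 ± 0.06 in males on the log2 scale (edgeR, adjusted p = 2.00e-07 and 9.80e-07). After PBS the sexes, which there also differ in Cd8a and Cd8b1, went opposite ways. It was lower in KO FT females by a log2 difference of -0.39 ± 0.06 and higher in KO FT males by 0.50 ± 0.06 (adjusted p = 1.23e-04 and 1.98e-06), so that the mean of the sexes, 0.06, did not pass. Over both sexes the response in KO FT mice exceeded that in WT FT mice by 0.49 ± 0.06 (edgeR, adjusted p = 1.76e-06). Within females the responses were 1.14 in KO FT and 0.16 in WT FT mice, and within males they were -0.08 and -0.09. Whether this donor difference itself differs between the sexes was not tested. For Stat3 the difference after aGC was 0.35 ± 0.04 (adjusted p = 3.98e-08), with 309 to 378 CPM in the 6 KO FT libraries and 213 to 322 CPM in the 6 WT FT libraries, and its responses differed by 0.26 ± 0.05 (adjusted p = 2.42e-04). Stat4 went the other way, with a response smaller in KO FT mice by a log2 difference of -0.31 ± 0.06 (adjusted p = 2.09e-04).

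The donor difference of Stat2 after aGC is given within each sex, and the difference between the sexes was not tested. KO FT males had 47.1, 58.3 and 55.6 CPM, against 26.6, 35.4 and 28.7 CPM in WT FT males, which do not overlap (log2 difference 0.83 ± 0.11, edgeR, adjusted p = 2.86e-06). KO FT females had 36.2, 46.5 and 42.1 CPM, against 53.6, 46.1 and 51.6 CPM in WT FT females, which overlap (-0.27 ± 0.11, adjusted p = 0.0540). The second value passed when any 1 of 8 libraries was left out (-0.36 to -0.27, adjusted p 0.0258 to 0.0493), and these were WT FT aGC female 2, KO FT aGC female 2, WT FT aGC male 1 and 2, KO FT aGC male 1, WT FT PBS male 1 and KO FT PBS male 1 and 3. Of 24 interferon-stimulated genes, 21 were higher and 1 lower in KO FT than in WT FT males after aGC (46.5% of all genes passed in either direction). In females 2 were higher and 19 lower (43.4%). The aGC females are high in Cd8a and Cd8b1 and the aGC males are low, so sex and these markers cannot be told apart. After PBS 18 of 24 were higher and 1 lower in KO FT mice, where 29.4% of all genes passed in either direction. Their median log2 difference was 0.36, beside 0.00 over all genes.

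Within each sex the number of STAT genes that passed varied beside its background. For aGC against PBS it was 5 of 6 in KO FT females (56.0% of all genes), 3 in KO FT males (53.5%), 4 among WT FT females (58.4%) and 5 among WT FT males (66.6%). For KO FT against WT FT it was 5 of 6 in females (29.8%) and 3 in males (42.5%) after PBS, and 3 in females (43.4%) and 6 in males (46.5%) after aGC. Some of the smaller calls hung on single libraries. In KO FT males the rise of Stat4 after aGC (0.15, edgeR, adjusted p = 0.0443) was lost without PBS male library 1 or 3 or aGC male library 1 or 2 (0.10 to 0.15, adjusted p 0.0725 to 0.224). It was also lost with upper-quartile scaling, in limma-voom and with only the compared groups. A fall of Stat5b in KO FT males passed only without PBS male library 2 (-0.15, adjusted p = 0.0483). After PBS in females, Stat2 (0.33, adjusted p = 0.0238) was lost without WT FT library 2 or 3 or KO FT library 3 (0.29 to 0.32, adjusted p 0.0704 to 0.0933), and Stat4 (0.19, adjusted p = 0.0191) without WT FT library 2 or 3 or KO FT library 1 (0.14 to 0.18, adjusted p 0.0631 to 0.113). Over both sexes after PBS, Stat4 (0.14, adjusted p = 0.0157) was lost without KO FT PBS female library 1 (0.11, adjusted p = 0.0558), and Stat5a (-0.19, adjusted p = 0.0134) without KO FT PBS male library 2 (-0.15, adjusted p = 0.0527). The lower Stat5a of KO FT males after aGC (-0.24, adjusted p = 0.00964) was lost without KO FT aGC male library 1 (-0.20, adjusted p = 0.0511).

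**Figure D4:**
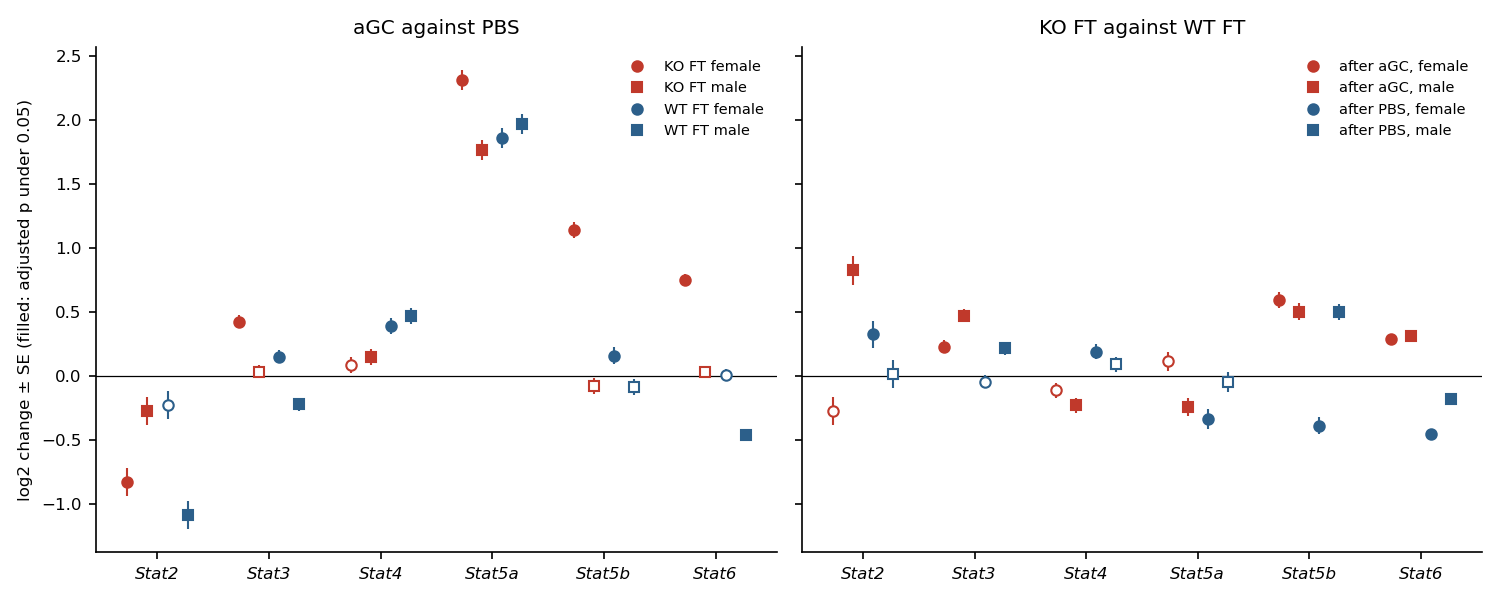
Log2 change of each STAT gene within each sex, with SE from edgeR's fit, for aGC against PBS (left) and KO FT against WT FT (right), with 3 libraries a group. Filled points passed an adjusted p under 0.05. Stat5a lies at 1.77 to 2.31 in all 4 aGC contrasts, while Stat5b and Stat6 rise mainly in KO FT females.

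The response to aGC differed between the sexes for several members. The female minus male difference of the response passed for 5 of 6 genes in KO FT mice, where 46.7% of all genes passed, and for 4 of 6 in WT FT mice, where 47.7% did. In KO FT mice it was 1.22 ± 0.09 for Stat5b, 0.72 ± 0.06 for Stat6, 0.54 ± 0.11 for Stat5a, 0.39 ± 0.07 for Stat3 and -0.55 ± 0.16 for Stat2 on the log2 scale. In WT FT mice it was 0.86 ± 0.16 for Stat2, 0.46 ± 0.06 for Stat6, 0.37 ± 0.07 for Stat3 and 0.25 ± 0.09 for Stat5b. Stat3, Stat5b and Stat6 responded more positively in females than in males under both donors, and Stat2 did so only in WT FT mice. That of Stat5b in WT FT mice (adjusted p = 0.0283) was lost without any 1 of 6 WT FT libraries, which were PBS female 1 and 3, aGC female 1 and 2, PBS male 3 and aGC male 3 (0.20 to 0.24, adjusted p 0.0528 to 0.107). For Stat4 the difference was -0.06 in KO FT mice (95% interval -0.23 to 0.11) and -0.08 in WT FT mice (-0.24 to 0.09), and neither passed. Cd8a and Cd8b1 differ between these groups in the same arrangement, as given above, and in this design the sex of the mice and that difference cannot be told apart.

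The receptors, kinases and inhibitors around the STATs were read from 14 lists with 88 genes, of which 86 were tested. The 4 JAK kinases went different ways in the sexes of KO FT mice, while in WT FT mice most were lower in both sexes. After aGC 3 were higher and 0 lower in KO FT females (56.0% of all genes passed in either direction). In KO FT males 1 was higher and 3 lower (53.5%). In WT FT mice 0 were higher and 4 lower in females (58.4%), and 1 was higher and 3 lower in males (66.6%). Jak2 was higher in KO FT females (0.84 ± 0.07), KO FT males (0.22 ± 0.07) and WT FT males (0.79 ± 0.07), and lower in WT FT females (-0.53 ± 0.07). Jak1 was higher in KO FT females (0.28 ± 0.05) and lower in the other 3 settings (-0.69 to -0.51), and Tyk2 likewise (0.32 ± 0.06, against -0.77 to -0.25). Over both sexes these averaged to 1 higher and 2 lower in KO FT mice (58.1%) and 1 higher and 3 lower in WT FT mice (68.4%). After aGC all 4 kinases were higher in KO FT than in WT FT mice within females (43.4% of all genes passed) and within males (46.5%). After PBS all 4 were higher in KO FT males (42.5%), while in KO FT females 0 were higher and 2 lower (29.8%). The part of the Cd8a and Cd8b1 difference in these splits was not tested.

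Among the receptors, the 6 chains that activate STAT5 moved apart. Il2ra, the inducible chain of the IL-2 receptor, rose by 1.45 ± 0.04 in KO FT mice and 1.81 ± 0.04 in WT FT mice, and Il7r, the IL-7 receptor chain of resting T cells, changed by -1.21 and -1.81. In all 1 chain was higher and 2 were lower in KO FT mice, where 58.1% of all genes passed in either direction. In WT FT mice 2 were higher and 3 lower (68.4%). Il12rb1, a chain of the IL-12 receptor, rose by 0.46 in KO FT and 0.71 in WT FT mice, while Il12rb2 changed by -0.62 and -0.68. Il4ra, the IL-4 receptor chain and the one tested gene of its list, rose by 0.32 in KO FT and 0.13 in WT FT mice over both sexes. Within a sex it was higher after aGC in females (0.89 and 0.62) and lower in males (-0.24 and -0.36). Of 6 chains that activate STAT3, 3 were higher and 3 lower in KO FT mice (58.1%). In WT FT mice 2 were higher and 4 lower (68.4%), with Il27ra lower in both donors. By sex these counts were 4 higher and 2 lower in KO FT females (56.0%) and 0 and 4 in KO FT males (53.5%). They were 3 and 2 in WT FT females (58.4%) and 0 and 4 in WT FT males (66.6%). This arrangement is shared with Cd8a and Cd8b1, whose part was not tested. Ifnar1, Ifnar2 and Irf9 were lower after aGC in both donors over both sexes, and within a sex all but Ifnar1 in KO FT females (0.11, not passed) were lower.

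Among inhibitors, the 8 SOCS genes, which are feedback inhibitors that cytokines induce, split: 3 were higher and 3 lower in KO FT mice, and 3 were higher and 2 lower in WT FT mice (58.1% and 68.4% of all genes passed in either direction, also for the counts that follow). Cish, a target of STAT5, rose by 0.80 ± 0.05 in KO FT and 1.10 ± 0.05 in WT FT mice, and Socs5 rose by 1.22 and 0.89. Socs2, also a STAT5 target, changed by -1.01 and -1.14 in KO FT and WT FT mice. Socs3, a STAT3 target, was lower in males only (-2.36 in KO FT and -2.59 in WT FT males), and in females it was at 0.07 in KO FT mice, which did not pass, and higher by 0.24 in WT FT mice. Its level was high in the male PBS groups, which are also high in Cd8a and Cd8b1, and the part of that difference was not tested. Of 4 PIAS genes, which restrain STATs in the nucleus, 3 fell and 1 rose in both donors, with Pias3, the inhibitor of STAT3, at -0.97 and -1.16. Of 5 phosphatases of the pathway, 3 rose and 1 fell in KO FT mice and 2 rose and 2 fell in WT FT mice. Ptpn11 went opposite ways in the sexes of KO FT mice (-0.30 in females, 0.79 in males). In WT FT mice it rose in females (1.28) and was at -0.06 in males, which did not pass.

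Known targets of each STAT did not move as one. Of 10 STAT5 targets, 7 were higher and 3 lower after aGC in both donors, with median log2 changes of 0.83 in KO FT and 0.82 in WT FT mice, where 58.1% and 68.4% of all genes passed in either direction. The same shares apply to the target counts that follow. Lta, a cytokine of the TNF family, rose by 1.17 and 1.15, and Bcl2, which protects cells from death, changed by -0.52 in KO FT females, -1.11 in KO FT males and -1.58 in WT FT males, and was at 0.00 in WT FT females. Of 7 STAT4 targets, 3 were higher and 3 lower in KO FT mice and 4 were higher and 3 lower in WT FT mice. Ifng rose by 2.08 ± 0.06 in KO FT and 2.90 ± 0.06 in WT FT mice, and Furin by 1.84 and 1.73. Of 4 STAT6 targets tested, 3 were higher and 0 lower in KO FT mice and 2 were higher and 1 lower in WT FT mice. Il4 rose by 1.30 and 1.75, and Gata3, which did not pass in KO FT mice over both sexes (0.06), fell in WT FT females (-0.62) and was at 0.09 in WT FT males, which did not pass. Of 9 STAT3 targets 5 were higher in each, with Batf at 0.73 and 0.93, while 3 were lower in KO FT mice and 4 in WT FT mice. The response difference between donors was -0.82 ± 0.09 for Ifng and -0.46 ± 0.09 for Il4, so these cytokine genes rose less in KO FT mice.

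Over the 24 libraries, the genes whose log2 CPM was most like each STAT gene were found among 8490 tested genes with a mean of at least 10 CPM. The libraries share their 8 groups, and the values are descriptions. For Stat5a they were Nr4a1 (r = 0.995), which T cell receptor signals induce, Mybbp1a (0.993) and Tnfrsf9 (0.989), a costimulatory receptor. For Stat4 they were Ifi47 (0.940), Gbp2 (0.912) and Gbp4 (0.901), which are interferon-inducible GTPases. For Stat2 they were Pink1 (0.939), Os9 and Zfp512, and for Stat5b Pptc7 (0.943), Zdhhc5 and Upf1. Stat3 was most like Khdrbs1 (0.903) and Stat6 most like Map3k11 (0.877), the lowest of the 6 best values. Over the 8 group means the r of Stat5a with Nr4a1 was 0.997. Among the 6 members themselves, r over the libraries was highest for Stat5b with Stat6 (0.732) and Stat3 with Stat5b (0.710), it was 0.465 for the neighbours Stat5a and Stat5b, and lowest for Stat2 with Stat5a (-0.792).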

How the data were processed

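RNA of sorted mLN iNKT cells was sequenced in 24 libraries, 3 in each of 8 groups. Per the labels' protocols, libraries were prepared with Nextera XT, a kit without strand information. The table deposited by the authors holds expected counts for each gene as whole numbers, from kallisto on GRCm38 (mm10) per the submitters' processing notes. The version, the annotation and the sort gate were not stated there. Names and positions were taken from GENCODE M21, which matched 55154 of 55335 identifiers.

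Low genes were dropped with filterByExpr of edgeR (minimum count 10, minimum total 15). After TMM scaling, the quasi-likelihood model of edgeR was fitted to 24 libraries with 8 group means and 16 residual degrees of freedom. The 15 comparisons are contrasts of these means, and those over both sexes weight them equally. Tests were two-sided, and Benjamini-Hochberg adjustment ran over all 15953 genes with a threshold of 0.05. The SE was taken from the log2 change and its F statistic. Simulated data were used to test the fit. Levels per kb use the union of a gene's exons. A count of 3, the limit that a count of 0 allows, is 0.081 to 0.307 CPM here and covers counting error only. Replicates differed by more than counting error in all 24 pairs (chi-square per degree of freedom 4.11 to 16.4).

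The members were chosen by symbol, and the lists, tests and alternatives with earlier results of these data known, so none is independent evidence. All 6 members are named in every comparison. From a list, at most 4 genes lowest in adjusted p and at most 2 others that failed the threshold are named in a comparison, and 3 most alike genes for each member. The lists overlap, and 1 further STAT gene is not reported here. Alternatives covered scaling, filter, tool, the replicate number as a block, 1 summed profile per group, the groups entered, groups under 50 CPM of Cd8a and each library left out. R 4.3.3, edgeR 4.0.16, limma 3.58.1 and DESeq2 1.42.0 were used.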

Additional observations from a re-analysis of the deposited data

Results flagged for a closer look

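Differences between groups in the response to aGC are listed for the members that passed a test of the difference itself (edgeR's quasi-likelihood test, Benjamini-Hochberg adjusted p over all genes tested). Of all genes tested, 44.5% passed between KO FT and WT FT mice. Between females and males 46.7% passed in KO FT mice and 47.7% in WT FT mice. Between KO FT and WT FT mice the difference was 0.6154 for Stat6 (adjusted p = 6.701e-10), 0.4922 for Stat5b (1.762e-06), 0.2643 for Stat3 (2.417e-04) and -0.3112 for Stat4 (2.093e-04) on the log2 scale. Between females and males of KO FT mice it was 1.219 for Stat5b (3.108e-10), 0.7192 for Stat6 (4.535e-09), 0.5424 for Stat5a (3.048e-04), 0.3917 for Stat3 (1.476e-04) and -0.5533 for Stat2 (0.005509). Between females and males of WT FT mice it was 0.856 for Stat2 (8.916e-05), 0.4638 for Stat6 (1.998e-06), 0.3725 for Stat3 (2.083e-04) and 0.2462 for Stat5b (0.02828). Groups of 3 libraries are too small for a check of single libraries that stand apart. The higher Cd8a and Cd8b1 level of female aGC and male PBS groups lies in the same contrasts, and its part in these differences was not tested.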

How the results depend on the processing

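With the counts of a group's 3 libraries summed to 1 profile (3 residual degrees of freedom), 1 STAT gene passed for aGC in KO FT and 1 in WT FT mice, in both cases Stat5a, and 0 passed for the donor comparison after PBS, after aGC or for the response difference. In these 3, edgeR also called 0 of all genes, with 255, 1306 and 628 of 15953 at an unadjusted p under 0.05, and for aGC it called 331 in KO FT and 1618 in WT FT mice, against 9273 and 10908 on single libraries. This fit holds 8 profiles in place of 24 and takes its spread from differences between groups, and the cause was not otherwise tested. In the same 3 comparisons 0 of 6 STAT genes had an unadjusted p under 0.05 in it, while DESeq2 and limma-voom on 24 libraries called 3, 5 and 4. Of all genes DESeq2 called 4931, 8292 and 7286, and limma-voom called 5262, 8176 and 7314. With only the compared groups, the donor comparison after PBS had 5 STAT calls, Stat2 and Stat3 being added, and aGC in KO FT males had 1. Of all genes, 5219 of 15949 and 7569 of 15912 passed in these fits. Leaving out 1 library gave 2 to 4 STAT calls for aGC in WT FT females, 1 to 3 for aGC in KO FT males and 3 to 5 for KO FT against WT FT females after PBS. The calls over all genes in these comparisons were 8704 to 9570, 7822 to 8792 and 3598 to 4926 in that order. All other counts of STAT calls, by scaling, filter, tool or the replicate number as a block, stayed within 1.5 times. Replicate numbers do not pair the libraries: same-numbered libraries had a median correlation of -0.0045 of their deviations, 0 of 84 pairs over 0.1, and the block gave 6 STAT calls for aGC in KO FT and 4 in WT FT mice and changed no STAT call count.

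Of 2844 further values of single genes, 21 turned their sign, and 20 of these had not passed before. Among groups under 50 CPM of Cd8a, Stat4 turned for aGC in KO FT mice (-0.30), Stat5b (-0.39) and Stat3 (-0.045) for KO FT against WT FT libraries after PBS, and there the fall of Stat5b passed. There Stat5b for aGC in KO FT mice was 0.91, Stat2 for KO FT against WT FT after aGC 0.82 and Stat5a after PBS -0.33. These low groups are the PBS females and the aGC males. Their donor comparisons thus hold females only after PBS and males only after aGC. The main fit likewise gave -0.39 for Stat5b and -0.33 for Stat5a in females after PBS, and 0.83 for Stat2 in males after aGC. In the low groups aGC against PBS sets males against females, so sex and treatment cannot be told apart. Upper-quartile scaling gave -0.016 for Stat5b after aGC in WT FT mice, -0.041 for Stat6 in WT FT females, and -0.011 for Stat3 and -0.014 for Stat6 in KO FT males. Without a filter these were -0.033 for Stat5b and -0.085 for Stat6. For KO FT against WT FT males after PBS, Stat2 was -0.0027 with RLE, -0.0028 with DESeq2, -0.034 without a filter and -0.063 to 0.090 with 1 library left out, and Stat5a was -0.093 to 0.035. With 1 library left out, Stat3 for aGC in WT FT mice was -0.049 to 0.0028, Stat6 in WT FT females -0.024 to 0.037 and the female minus male response of Stat4 in KO FT mice -0.136 to 0.0136. Depth limits none of the 6 genes, with at least 359 counts each, while how many separate cell pools stand behind the libraries is not stated.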
